A study of Mus musculus with 4 samples.

Results

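Glycolysis and hypoxia-response genes were followed here as a set of 31 members, chosen by symbol from the 26214 genes of the count files. By role the set holds 16 glycolytic enzymes, 3 regulators of glycolytic flux, 2 alpha subunits of the hypoxia-inducible factors (HIF) and 10 hypoxia targets outside glycolysis. Every member was found in the files, and every member passed the filter on low counts. RNA came from colon cancer tissue of mice given azoxymethane, a carcinogen, and then dextran sulfate sodium, an agent that damages the lining of the colon. The groups were Gsk3b (IEC-/-), labelled as lacking the kinase gene Gsk3b, and Gsk3b (IEC+/+), labelled as keeping it, with 2 libraries each. The labels do not spell out IEC, which in this field commonly stands for intestinal epithelial cell. Both groups carried the same tumour induction. The sources used here do not give the way Gsk3b was deleted, the deleted exons, the age of the mice, the tumour stage or whether each library was made from its own mouse. The p-values therefore reflect the spread among these 4 libraries alone, which may be technical.

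Glycolysis splits glucose into pyruvate in the cytosol, and lactate dehydrogenase turns pyruvate into lactate. Under low oxygen the HIF alpha subunits escape hydroxylation by prolyl hydroxylases, pair with ARNT and bind the core motif of hypoxia response elements. Their targets include most glycolytic enzymes, as well as genes for pH balance, blood vessel growth, mitophagy, collagen processing and the prolyl hydroxylases themselves. Colon epithelium normally lives beside a nearly oxygen-free lumen, and many colon tumours use glycolysis heavily.

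Total counts per library were 25472503 to 27218515, and the scaling factors were 0.955 to 1.05. Gsk3b itself averaged 151 ± 2.41 CPM for IEC-/- and 164 ± 9.53 CPM for IEC+/+ (SD, n = 2 each), where CPM, the usual count rate of RNA-seq, sets a gene's count against the scaled library size (log2 fold change -0.12, edgeR adjusted p = 0.681). Whole-tissue RNA includes cells other than epithelium, and a deletion of some exons can leave counts elsewhere in the gene, so this value does not check the labels. Epithelial markers were present, with 0 of the 12 at a count of 0 in all libraries.

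Most members were lower in the IEC-/- tumours, by modest amounts, and the clearest falls were those of Car9 and Hk2. At an adjusted p under 0.05 over all genes tested, 2 members fell, 0 rose and 29 did not pass (edgeR quasi-likelihood test with Benjamini-Hochberg adjustment). Over all 16637 genes tested, 0.884% were called, 0.763% as lower and 0.12% as higher. At an unadjusted p under 0.05, 15 members were lower and 1, Aldoc, was higher. Among all genes 9.12% were lower and 7.5% were higher by that rule. The members' median log2 fold change was -0.34, beside 0.01 over all genes tested. The IEC-/- libraries both lay below both IEC+/+ libraries for 20 members, above them for 3 and overlapped them for 8, where 24.1% of all genes lay below and 24% above. DESeq2 called 9 members, 8 lower and 1 higher, against 6.14% of all genes, 3.87% lower and 2.27% higher. The DESeq2 shares, here and below, are over the 20618 genes with a count, which include scarce genes outside the 16637. By limma-voom Car9 and Hk2 were called as by edgeR, with 0.469% of all genes. Without IEC+/+ replicate 1, and likewise without IEC+/+ replicate 2, edgeR called 0 members and 0% of all genes, so each edgeR call named here and below was lost. At an unadjusted p under 0.05, 7 members were lower in each case, beside 4.66% of all genes without replicate 1 and 6.33% without replicate 2. In bulk tissue, fewer cells of a type and less RNA per cell cannot be told apart. The summed level of 12 epithelial markers was 6475 to 6917 CPM in IEC-/- and 10707 to 12451 CPM in IEC+/+, and its part in the members' differences was not tested. Krt8 was the largest part of this sum, with means of 1523 CPM in IEC-/- and 2958 CPM in IEC+/+.

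**Figure D1:**
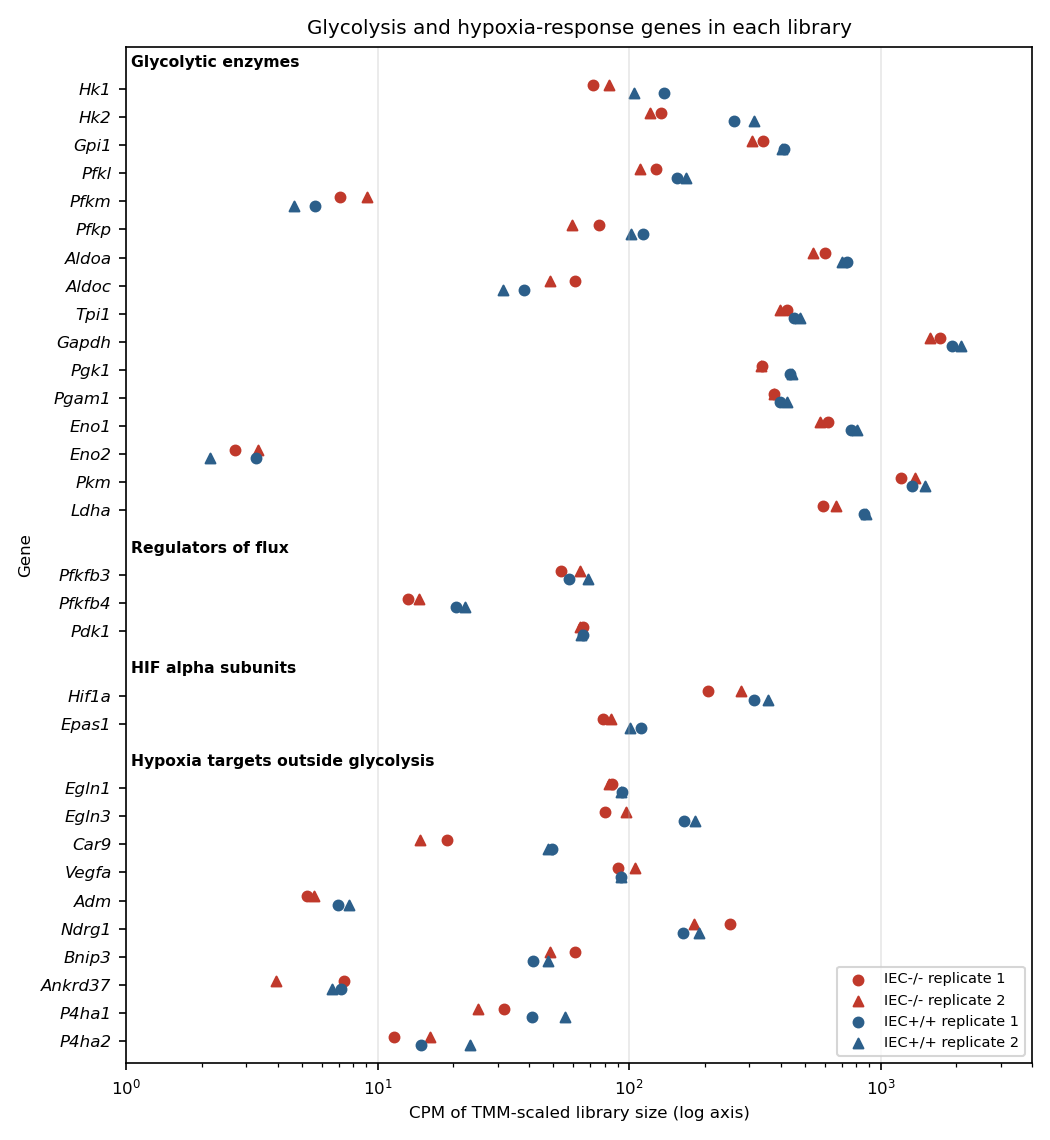
Level of each member in each library, in CPM of the scaled library size on a log axis, grouped by role; circles are replicate 1 and triangles replicate 2 of each group. For 20 of the 31 members both IEC-/- points lie left of both IEC+/+ points, as they would for 24.1% of all genes tested.

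The core of the hypoxia response element was searched as ACGTG and as GCGTG, on both strands, in the 250 bases before the first listed start of each gene (RefSeq, GRCm38.p6). Of the 31 members 29 had such an entry, all but Epas1 and Ndrg1. ACGTG was found in 14 of these 29, or 48.3%, in 20.7% of the 12894 genes tested here that have an entry, and in 16.6% of all 27025 genes in the table. It was found in 7 of 9 hypoxia targets and in 5 of 16 enzymes. GCGTG was found in 14 of the 29, or 48.3%, close to the 42.0% of genes tested, beside 28.2% of all genes. At least 1 of the motifs was found in 22 of the 29, or 75.9%, beside 53.1% of genes tested and 38.6% of all genes. A match describes these letters only and is not a binding site. Car9 and Hk2 have ACGTG, and so do Bnip3, Pfkm and Pgam1, while Hk1 and Aldoa have neither motif in this window.

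The 30 bases around the ACGTG match nearest to the start are shown for the 7 members that have one and were lower at an unadjusted p under 0.05. Hk1, Gpi1, Pfkl, Pfkp, Aldoa, Eno1 and Pfkfb4 were lower by that rule too and have no ACGTG in the 250 bases. Pfkm, Pgam1, Pfkfb3, Egln1, Bnip3, Ankrd37 and P4ha2 have ACGTG and were not lower by that rule. The windows thus only show what the motif looks like. The windows are written 5′ to 3′ on the strand of the gene, with ACGTG or its reverse complement CACGT in capitals. The position is that of the first capital base of that match, counted from the first listed RefSeq start. For Car9, Ldha and Hif1a the window lies inside the gene span of GENCODE, the other annotation used here, which begins further upstream.
Car9, position -18, chr4:43506996-43507025, plus strand: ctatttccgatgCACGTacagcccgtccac
Hk2, position -52, chr6:82774489-82774518, minus strand: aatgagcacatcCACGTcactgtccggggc
Egln3, position -229, chr12:54204086-54204115, minus strand: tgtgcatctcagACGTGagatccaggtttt
P4ha1, position -16, chr10:59323266-59323295, plus strand: ggtgtgacagagcgCACGTagcgagggctg
Ldha, position -34, chr7:46845758-46845787, plus strand: CGTGggttcccgCACGTccgctgggctccc
Pgk1, position -131, chrX:106186957-106186986, plus strand: aaatggaagtagCACGTctcactagtctcg
Hif1a, position -70, chr12:73907785-73907814, plus strand: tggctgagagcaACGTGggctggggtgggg
The Ldha window opens inside a second match, in which ACGTG on both strands overlaps as CACGTG, at positions -48 and -47. Car9 and P4ha1 have their match within 20 bases of the start, whereas that of Egln3 lies near the far end of the window.

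Hexokinase, which traps glucose in the cell as glucose 6-phosphate, was the step that held the largest fold change of the 16 enzymes. Hk2, the inducible hexokinase (chromosome 6, 82725025 to 82774454, minus strand, GRCm38), had 134 and 121 CPM in the IEC-/- libraries, against 261 and 313 CPM in the IEC+/+ libraries. The groups were well apart, with the lowest IEC+/+ library well above the highest IEC-/- library. The means were 127 ± 9.34 CPM for IEC-/- and 287 ± 36.5 CPM for IEC+/+ (SD, n = 2 each). The log2 fold change was -1.17 (SE 0.14, edgeR adjusted p = 0.0461), or 2.25-fold lower. This call lies close to the threshold. It was lost with upper-quartile scaling (edgeR adjusted p = 0.0517), with at least 100 counts in total (0.0506), with the replicate number as a block (0.0528) and without IEC+/+ replicate 1 or 2 (0.414 and 0.237), and over all alternatives the adjusted p ran from 1.78e-09 by DESeq2 to 0.414. The Hk2 promoter window shown above holds ACGTG. Hk1, the hexokinase found in most tissues, had 71.6 and 83.1 CPM in IEC-/- tumours against 138 and 104 CPM in IEC+/+ tumours (log2 fold change -0.65, adjusted p = 0.172). Its groups did not overlap either, but the IEC+/+ libraries were spread widely. Per kilobase of annotated exon, Hk1 and Hk2 together had 30.8 and 29.97 CPM in IEC-/- tumours against 59.9 and 64.6 CPM in IEC+/+ tumours. Hk2 supplied 72.8% and 67.5% of that sum in IEC-/- and 73.0% and 81.1% in IEC+/+, so its share was lower in IEC-/-, though only just in replicate 1 of each group.

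At the next steps the groups did not overlap for any enzyme, though none passed the test by edgeR. With 2 libraries a group, 24.1% of all genes tested lay below without overlap and 24% above. Glucose 6-phosphate isomerase, Gpi1, had 341 and 307 CPM in IEC-/- tumours against 413 and 405 CPM in IEC+/+ tumours (log2 fold change -0.34, adjusted p = 0.256). A gene on the opposite strand shares 11.5% of the exon bases of Gpi1. Phosphofructokinase makes the committed step of the pathway. Its liver-type subunit Pfkl had 127 and 110 CPM in IEC-/- tumours against 155 and 168 CPM in IEC+/+ tumours (-0.44, adjusted p = 0.203). The platelet-type subunit Pfkp had 75.8 and 59.5 CPM in IEC-/- tumours against 113 and 101 CPM in IEC+/+ tumours (-0.66, adjusted p = 0.138). The muscle-type subunit Pfkm ran the other way at a low level, with 7.09 and 9.03 CPM in IEC-/- tumours against 5.64 and 4.65 CPM in IEC+/+ tumours (0.65, adjusted p = 0.352). Another annotated gene on the same strand shares 10.2% of the exon bases of Pfkm. Both IEC-/- libraries thus lay below both IEC+/+ libraries for Pfkl and Pfkp, and above them for Pfkm. Per kilobase, Pfkm made up 7.89% and 11.4% of phosphofructokinase in IEC-/- and 5.06% and 4.09% in IEC+/+. These shares depend on the length of all annotated exons, which is 3340 bases for Pfkm, 6675 for Pfkl and 13401 for Pfkp. That length can exceed the transcripts present, so the shares are approximate. Pfkl remained the main subunit, at 69.8% to 71.1% in IEC-/- and 69.6% to 73.8% in IEC+/+.

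Aldolase cleaves fructose 1,6-bisphosphate, and its isoforms differed in direction. Aldoa, the main form, had 599 and 538 CPM in IEC-/- tumours against 736 and 704 CPM in IEC+/+ tumours (log2 fold change -0.34, adjusted p = 0.258). Aldoc, the form best known from brain, had 60.7 and 48.4 CPM in IEC-/- tumours against 38.1 and 31.6 CPM in IEC+/+ tumours (0.65, adjusted p = 0.160). Both pairs of groups were apart, in opposite directions, and by DESeq2 Aldoc was the single member called higher. As a share of Aldoa and Aldoc together per kilobase, Aldoc had 8.29% and 7.43% in IEC-/- against 4.41% and 3.84% in IEC+/+. With 2 libraries against 2, an exact two-sided permutation test of such a share cannot give a p under 0.333, so no test was made.

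**Figure D2:**
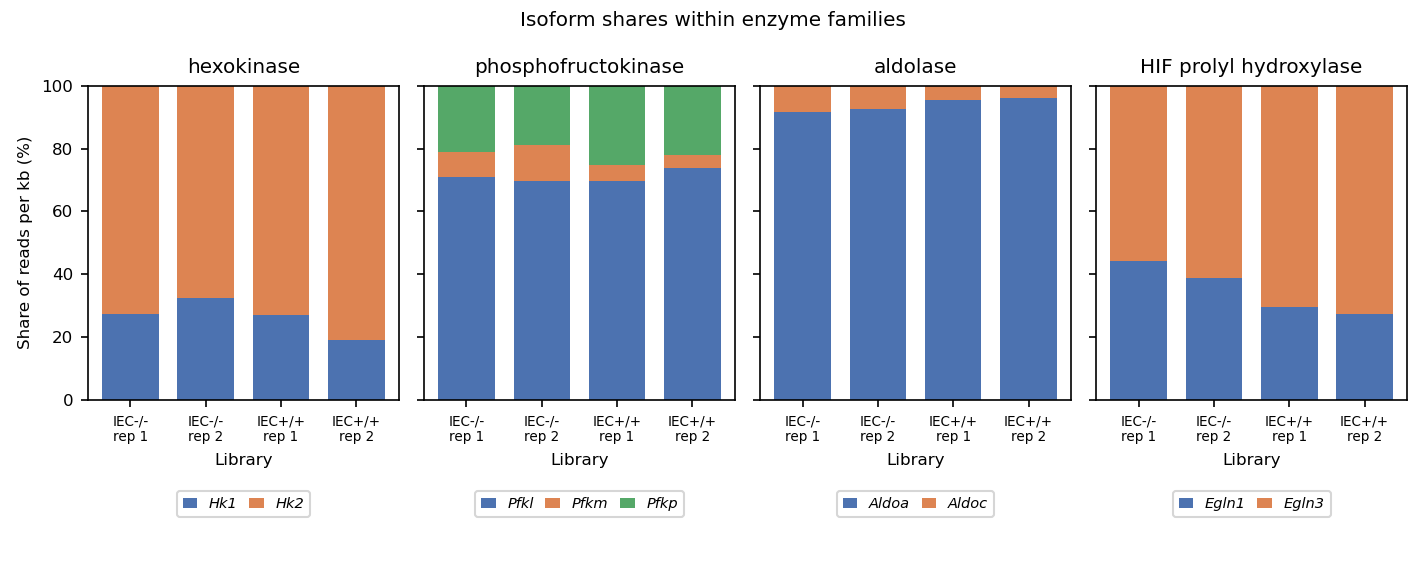
Share of each isoform in the reads per kilobase of its enzyme family, in percent, for each library. Aldoc and Pfkm take a larger share in both IEC-/- libraries, and Egln3 takes a smaller one (56.0% and 61.2%, against 70.4% and 72.8% in IEC+/+).

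None of the next enzymes, which work on the triose phosphates, passed the test by edgeR. Triose phosphate isomerase, Tpi1, had 424 and 397 CPM in IEC-/- tumours against 451 and 479 CPM in IEC+/+ tumours (log2 fold change -0.18, adjusted p = 0.507). Gapdh, which makes the NADH of glycolysis and often serves as a reference gene, had 1725 and 1569 CPM in IEC-/- tumours against 1920 and 2080 CPM in IEC+/+ tumours (-0.28, adjusted p = 0.341). The groups did not overlap for either gene, by narrow margins. Pgk1, which yields the first ATP, had 337 and 335 CPM in IEC-/- tumours against 438 and 446 CPM in IEC+/+ tumours (-0.40, SE 0.11, adjusted p = 0.177). Its replicates were nearly equal within each group, with SDs of 1.20 CPM in IEC-/- and 5.68 CPM in IEC+/+. Pgam1, phosphoglycerate mutase, had 377 and 378 CPM in IEC-/- tumours against 399 and 425 CPM in IEC+/+ tumours (-0.13, adjusted p = 0.644).

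Enolase and pyruvate kinase make the last steps to pyruvate. Eno1, the general enolase, had 620 and 577 CPM in IEC-/- tumours against 762 and 807 CPM in IEC+/+ tumours (log2 fold change -0.39, adjusted p = 0.200), with no overlap. Eno1b, a near-copy of Eno1, was counted separately 714 and 662 times in IEC-/- against 796 and 906 times in IEC+/+. How reads were shared between them was not stated, so the value of Eno1 is uncertain. The mouse genome also holds processed copies of Gapdh and of several other glycolytic genes, with the same limit. Eno2, the neuronal form, was scarce and overlapped, with 2.70 and 3.35 CPM in IEC-/- tumours against 3.28 and 2.16 CPM in IEC+/+ tumours. Pkm, the pyruvate kinase gene of most tissues, overlapped too, with 1201 and 1368 CPM in IEC-/- tumours against 1339 and 1506 CPM in IEC+/+ tumours (-0.15, adjusted p = 0.650). Another annotated gene on the same strand shares 15.3% of the exon bases of Pkm. For Pkm the level in IEC-/- over that in IEC+/+ had a 95% interval of 0.716 to 1.14, so a difference of this size was not detectable with 2 libraries a group.

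Ldha, which converts pyruvate to lactate, had 591 and 663 CPM in IEC-/- tumours against 863 and 874 CPM in IEC+/+ tumours (log2 fold change -0.47, SE 0.12, adjusted p = 0.156). The IEC+/+ libraries were almost equal, and both IEC-/- libraries lay clearly below them, although the gene did not pass over all genes by edgeR. Per kilobase, mean Ldha was 189 CPM in IEC-/- and 262 CPM in IEC+/+. Summed over the 16 enzymes, levels were 6692 and 6567 CPM in IEC-/- tumours against 8035 and 8450 CPM in IEC+/+ tumours. Of the enzymes, 1 fell, 0 rose and 15 did not pass, and 9 were lower and 1 higher at an unadjusted p under 0.05. Over all genes tested 0.763% fell and 0.12% rose, and 9.12% were lower and 7.5% higher at that unadjusted p. By DESeq2 5 enzymes passed as lower (Hk1, Hk2, Pfkp, Pgk1 and Ldha) and 1 as higher, against 3.87% and 2.27% of all genes.

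None of the regulators of flux passed the test. Pfkfb4, which makes the phosphofructokinase activator fructose 2,6-bisphosphate, had 13.2 and 14.6 CPM in IEC-/- tumours against 20.6 and 22.2 CPM in IEC+/+ tumours (log2 fold change -0.62, adjusted p = 0.206), with no overlap. Pfkfb3, its more abundant relative, overlapped, with 53.6 and 63.6 CPM in IEC-/- tumours against 57.4 and 68.8 CPM in IEC+/+ tumours (-0.11, adjusted p = 0.797). Pdk1 encodes a kinase that inhibits pyruvate dehydrogenase and is a well-known HIF target. It had 65.5 and 63.9 CPM in IEC-/- tumours against 65.3 and 64.3 CPM in IEC+/+ tumours. The groups overlapped, with SDs of 1.14 CPM in IEC-/- and 0.745 CPM in IEC+/+, and the 95% interval of its ratio was 0.826 to 1.21. By edgeR, DESeq2 and limma-voom 0 of these 3 genes passed, and 1 was lower at an unadjusted p under 0.05, beside 9.12% of all genes.

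The HIF alpha subunits were both lower without overlap, as were 24.1% of all genes tested. Hif1a, the broadly expressed subunit, had 206 and 278 CPM in IEC-/- tumours against 315 and 358 CPM in IEC+/+ tumours (log2 fold change -0.48, SE 0.18, adjusted p = 0.276). The IEC-/- libraries differed from each other by nearly as much as the groups did. Epas1, which encodes HIF-2 alpha and is strong in vessels, had 78.4 and 84.8 CPM in IEC-/- tumours against 111 and 101 CPM in IEC+/+ tumours (-0.38, SE 0.12, adjusted p = 0.229). HIF alpha subunits are controlled mainly as proteins, which these mRNA counts do not measure. Per kilobase Hif1a made up 71.4% and 75.6% of both in IEC-/- and 72.8% and 77.1% in IEC+/+, so the balance of the subunits overlapped between groups. By edgeR, DESeq2 and limma-voom 0 of the 2 passed, and both were lower at an unadjusted p under 0.05, beside 9.12% of all genes.

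Of the hypoxia targets outside glycolysis Car9 fell, and the others ranged from lower to slightly higher. Car9, a carbonic anhydrase of the cell surface that helps set pH and is widely used as a hypoxia marker (chromosome 4, 43506966 to 43513729, plus strand, GRCm38), had 18.9 and 14.8 CPM in IEC-/- tumours against 49.3 and 47.4 CPM in IEC+/+ tumours. The groups were far apart beside the spread within them. The means were 16.9 ± 2.92 CPM for IEC-/- and 48.3 ± 1.35 CPM for IEC+/+ (SD, n = 2 each). The log2 fold change was -1.52 (SE 0.17, edgeR adjusted p = 0.0413), or 2.87-fold lower. Without IEC+/+ replicate 1 or 2 the edgeR adjusted p of Car9 was 0.424 and 0.231, and over all alternatives it ran from 1.28e-09 by DESeq2 to 0.424. Of the 31 members Car9 had the smallest p, at place 65 among all genes tested, with Hk2 at place 101. An antisense gene shares 9.29% of the exon bases of Car9, and use of strand in counting was not stated. Its ACGTG match, shown above, lies closest to the RefSeq start after that of P4ha1 among the windows printed. That match lies inside the span given here for Car9, which is from GENCODE. Egln3, the most oxygen-responsive of the HIF prolyl hydroxylases, had 80.1 and 97.1 CPM in IEC-/- tumours against 165 and 183 CPM in IEC+/+ tumours (-0.97, SE 0.15, adjusted p = 0.0604). P4ha1, a prolyl hydroxylase of collagen, had 31.7 and 25.01 CPM in IEC-/- tumours against 41.2 and 55.8 CPM in IEC+/+ tumours (-0.78, SE 0.21, adjusted p = 0.164). Neither pair of groups overlapped, and DESeq2 called both genes lower. Per kilobase, Egln3 supplied 56.0% and 61.2% of Egln1 and Egln3 together in IEC-/-, against 70.4% and 72.8% in IEC+/+.

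The other targets showed smaller differences or the opposite sign. Egln1, the main HIF prolyl hydroxylase, had 85.2 and 83.1 CPM in IEC-/- tumours against 93.7 and 92.6 CPM in IEC+/+ tumours (log2 fold change -0.15, adjusted p = 0.574). Adm, the vasodilator adrenomedullin, was low in all libraries, with 5.25 and 5.57 CPM in IEC-/- tumours against 6.95 and 7.68 CPM in IEC+/+ tumours (-0.44, adjusted p = 0.485). The groups did not overlap for Egln1 or Adm. P4ha2, the second collagen hydroxylase, overlapped, with 11.6 and 16.2 CPM in IEC-/- tumours against 14.9 and 23.3 CPM in IEC+/+ tumours. So did Ankrd37, at 7.34 and 3.93 CPM in IEC-/- tumours against 7.18 and 6.58 CPM in IEC+/+ tumours. Its exons share 22.7% of their bases with Lrp2bp on the opposite strand, with the same limit on strand.

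Vegfa, the main vessel growth factor under hypoxia, had 90.4 and 106 CPM in IEC-/- tumours against 92.9 and 92.4 CPM in IEC+/+ tumours (log2 fold change 0.08, adjusted p = 0.818). The 95% interval of its ratio was 0.847 to 1.32. The stress gene Ndrg1 had 252 and 180 CPM in IEC-/- tumours against 163 and 190 CPM in IEC+/+ tumours (0.29, adjusted p = 0.520), with overlap. Bnip3, a mitophagy receptor, had 61.2 and 48.6 CPM in IEC-/- tumours against 41.6 and 47.4 CPM in IEC+/+ tumours (0.30, adjusted p = 0.425). The Bnip3 groups were apart by a narrow margin, and 22.3% of its exon bases are shared with an antisense gene. In all, 1 of the 10 targets fell, 0 rose and 9 did not pass, and by DESeq2 3 passed as lower and 0 as higher. Over all genes 0.763% fell and 0.12% rose by edgeR, and DESeq2 called 3.87% lower and 2.27% higher.

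**Figure D3:**
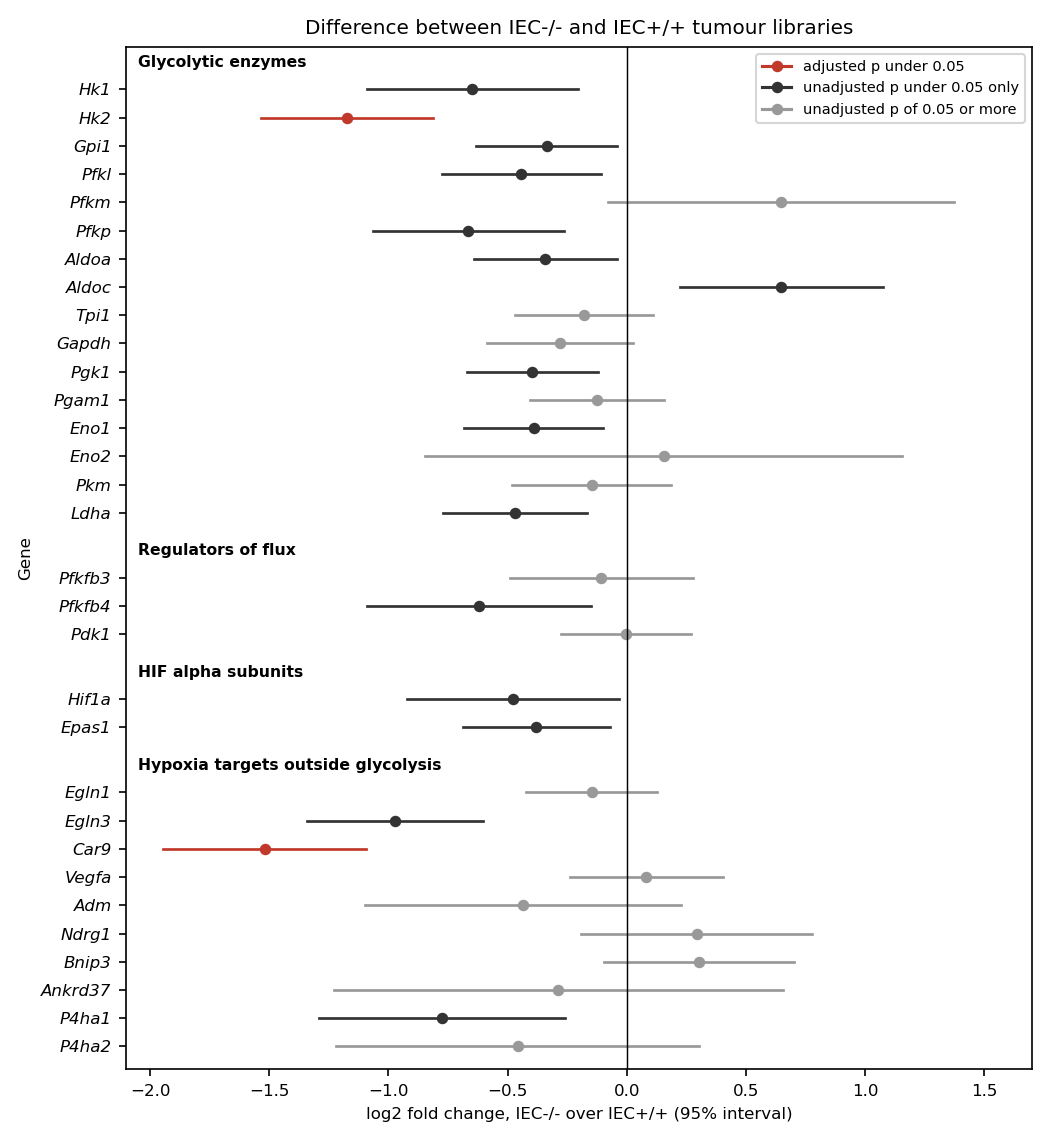
Log2 fold change of each member, IEC-/- over IEC+/+, with its 95% interval, by role; red marks an adjusted p under 0.05 and black an unadjusted p under 0.05 only. Car9 (-1.52) and Hk2 (-1.17) lie farthest left, while Aldoc (0.65) is the single member whose interval lies above 0.

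Glycolytic enzymes and the other hypoxia targets were then set against each other. The median log2 fold change was -0.34 over the 16 enzymes and -0.36 over the 10 targets. Mean log2 CPM of the enzymes was 7.47 and 7.44 in IEC-/- against 7.74 and 7.69 in IEC+/+, a difference of -0.26. Mean log2 CPM of the targets was 5.12 and 4.99 in IEC-/- against 5.38 and 5.53 in IEC+/+, a difference of -0.40. The groups did not overlap in either mean. The gap between enzymes and targets within a library was 2.34 and 2.45 in IEC-/- and 2.36 and 2.15 in IEC+/+, so it overlapped between groups. Its difference of 0.14 was no larger than the SD of 0.15 between the IEC+/+ libraries, though above the SD of 0.077 between the IEC-/- libraries. The log2 fold changes of the enzymes ran from -1.17 (Hk2) to 0.65 (Aldoc and Pfkm), and those of the targets from -1.52 (Car9) to 0.30 (Bnip3).

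**Figure D4:**
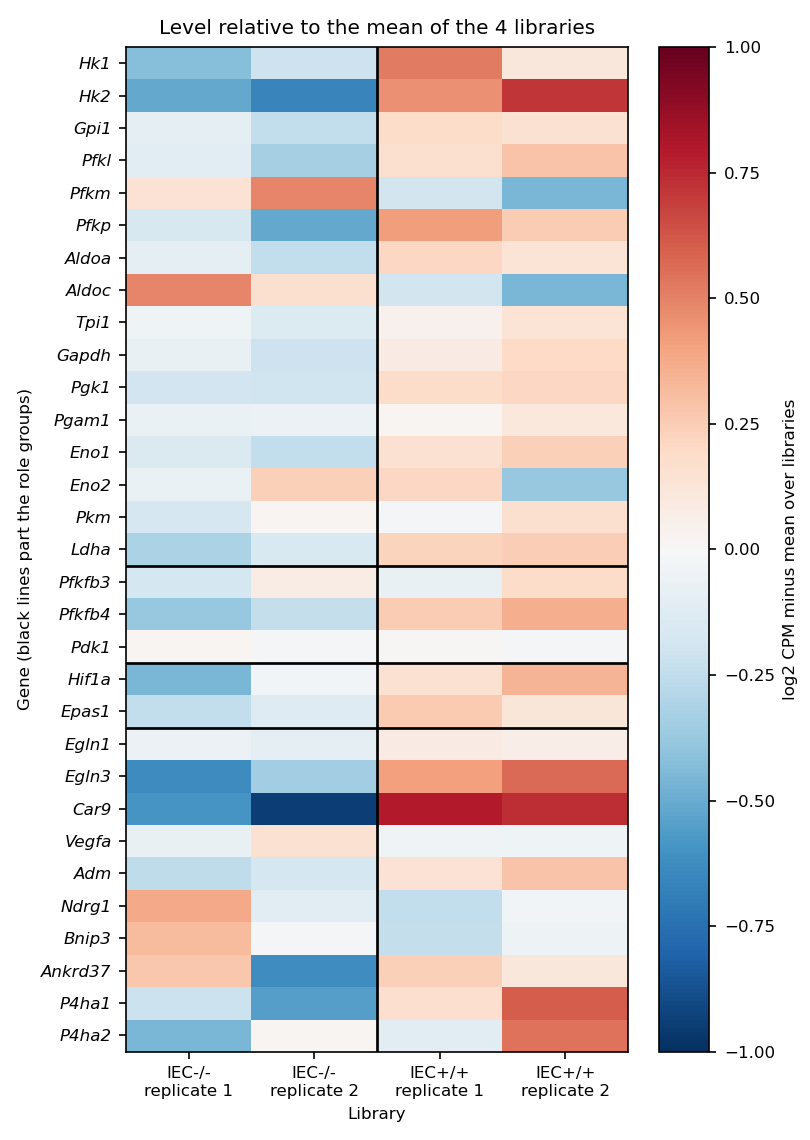
Log2 CPM of each member minus its mean over the 4 libraries, by library, with the members in the same order and black lines between roles and groups. Blue in both IEC-/- columns and red in both IEC+/+ columns mark Hk2, Egln3 and Car9 most strongly, while Aldoc and Pfkm show the reverse and Pdk1 is nearly white throughout.

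Genes that bring glucose in and carry lactate out were read next, from a list of 9 transporters. For this and the later lists, edgeR called 0.763% of all genes tested lower and 0.12% higher. At an unadjusted p under 0.05, 9.12% were lower and 7.5% higher, and DESeq2 called 3.87% lower and 2.27% higher. Slc16a1, the lactate and butyrate carrier MCT1, fell, with 50.2 and 57.4 CPM in IEC-/- tumours against 133 and 119 CPM in IEC+/+ tumours (log2 fold change -1.22, SE 0.13, edgeR adjusted p = 0.0413). It was the 1 gene of the 9 that passed by edgeR or limma-voom, while 2 were lower at an unadjusted p under 0.05 and by DESeq2. The list had 3 of 9 genes below 0, with a median log2 fold change of 0.05. Slc2a1, the hypoxia-induced glucose transporter GLUT1, had 74.8 and 92.1 CPM in IEC-/- tumours against 152 and 121 CPM in IEC+/+ tumours (-0.71, adjusted p = 0.145), without overlap. Slc16a3, the lactate exporter MCT4 and a HIF target, overlapped, with 156 and 108 CPM in IEC-/- tumours against 123 and 131 CPM in IEC+/+ tumours (0.05).

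Among 13 genes of the HIF machinery 1 rose and 0 fell by edgeR, with 1 higher and 1 lower both at an unadjusted p under 0.05 and by DESeq2. Of all genes tested, 7.5% were higher and 9.12% lower at that unadjusted p, and DESeq2 called 2.27% higher and 3.87% lower. The gene that rose by edgeR was Arnt2, a partner of HIF alpha subunits best known from the nervous system. It had 62.3 and 51.2 CPM in IEC-/- tumours against 16.8 and 19.3 CPM in IEC+/+ tumours (log2 fold change 1.65, SE 0.16, edgeR adjusted p = 0.0403). Arnt, the usual partner, overlapped at 61.0 and 55.5 CPM in IEC-/- tumours against 62.0 and 49.1 CPM in IEC+/+ tumours (0.07). In IEC-/- Arnt2 and Arnt thus had like CPM, a scale that takes no account of gene length. Cited2, which competes with HIF for its coactivator, had 50.3 and 43.4 CPM in IEC-/- tumours against 66.0 and 74.7 CPM in IEC+/+ tumours (-0.59, adjusted p = 0.133). Hif1an, the asparagine hydroxylase that inhibits HIF, had a log2 fold change of -0.23 (adjusted p = 0.397).

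Of 15 other isoforms of glycolytic enzymes 13 were tested and 0 passed by edgeR or limma-voom, 4 were lower and 1 higher at an unadjusted p under 0.05, and DESeq2 called 2 lower. Beside these counts, 9.12% of all genes tested were lower and 7.5% higher at that unadjusted p, and DESeq2 called 3.87% lower. Eno3, the enolase of muscle, had 14.9 and 14.7 CPM in IEC-/- tumours against 40.1 and 26.3 CPM in IEC+/+ tumours (log2 fold change -1.16, adjusted p = 0.107). Pklr, the pyruvate kinase gene of liver and red cells, had 66.4 and 67.9 CPM in IEC-/- tumours against 95.9 and 87.6 CPM in IEC+/+ tumours (-0.45, adjusted p = 0.156). The groups did not overlap for either gene.

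Gluconeogenesis and pyruvate entry genes had 0 of 19 past the test by edgeR or limma-voom, with 4 lower and 2 higher at an unadjusted p under 0.05 and 3 lower and 2 higher by DESeq2. The shares of all genes were 9.12% lower and 7.5% higher at that unadjusted p, and 3.87% and 2.27% by DESeq2. Fbp2, a fructose bisphosphatase, had 34.3 and 35.7 CPM in IEC-/- tumours against 69.7 and 61.6 CPM in IEC+/+ tumours (-0.91, adjusted p = 0.0516). Pck1 had 0.791 and 1.18 CPM in IEC-/- tumours against 14.3 and 6.70 CPM in IEC+/+ tumours (-3.41, adjusted p = 0.0591), and Pcx, pyruvate carboxylase, had -1.09 (adjusted p = 0.0731). These genes work against or beside glycolysis, and their groups did not overlap.

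Of 30 further hypoxia-inducible genes 0 passed by edgeR or limma-voom, 5 were lower and 2 higher at an unadjusted p under 0.05, and DESeq2 called 4 lower and 1 higher. Among all genes 9.12% were lower and 7.5% higher at that unadjusted p, and DESeq2 called 3.87% lower and 2.27% higher. The median log2 fold change of the 30 was -0.25. Ero1a, the oxidase of protein folding, had 80.4 and 92.7 CPM in IEC-/- tumours against 141 and 143 CPM in IEC+/+ tumours (-0.71, adjusted p = 0.0774). Hmox1, haem oxygenase, had 36.9 and 40.7 CPM in IEC-/- tumours against 123 and 69.1 CPM in IEC+/+ tumours (-1.31, adjusted p = 0.111). Bhlhe41, a transcriptional repressor, ran the other way, with 5.72 and 8.996 CPM in IEC-/- tumours against 2.35 and 2.72 CPM in IEC+/+ tumours (1.53, adjusted p = 0.134).

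Epithelial markers were lower in IEC-/- as well. Of 12 epithelial markers 2, Krt20 and Lgals4, fell, 10 were lower at an unadjusted p under 0.05, and the median log2 fold change was -0.85. DESeq2 called 10 of the 12 lower and limma-voom 2. Over all genes 9.12% were lower and 7.5% higher at that unadjusted p, and DESeq2 called 3.87% lower and 2.27% higher. Epcam, a defining marker, had 1270 and 1045 CPM in IEC-/- tumours against 1398 and 1444 CPM in IEC+/+ tumours (-0.30, adjusted p = 0.374). Krt18 overlapped, with 457 and 544 CPM in IEC-/- tumours against 498 and 550 CPM in IEC+/+ tumours (-0.07, edgeR adjusted p = 0.868). Of 10 genes of differentiated colonocytes 4 (Aqp8, Clca4a, Mep1a and Slc5a8) fell, 9 were lower at an unadjusted p under 0.05, DESeq2 called 8 lower and limma-voom 0, and the median log2 fold change was -3.28. Their summed level was 485 to 583 CPM in IEC-/- and 873 to 1150 CPM in IEC+/+. Most of that sum in IEC-/- was Slc9a3, a sodium and proton exchanger, with 398 and 495 CPM in IEC-/- tumours against 364 and 469.5 CPM in IEC+/+ tumours (0.10, adjusted p = 0.844). Lists of other cell types were compared next. Endothelial markers summed to 262 to 285 CPM in IEC-/- and 219 to 231 CPM in IEC+/+, and macrophage markers to 572 to 647 CPM in IEC-/- and 546 to 557 CPM in IEC+/+. Neutrophil markers ranged from 89.0 to 358 CPM in IEC-/- and 53.9 to 144 CPM in IEC+/+, fibroblast markers from 2018 to 2340 CPM in IEC-/- and 2185 to 3550 CPM in IEC+/+, and smooth muscle markers from 268 to 281 CPM in IEC-/- and 209 to 502 CPM in IEC+/+. Haemoglobin and other red blood cell genes ranged from 251 to 536 CPM in IEC-/- and 476 to 1118 CPM in IEC+/+, and no gene of these last 6 lists passed by edgeR. At an unadjusted p under 0.05, 2 smooth muscle genes and 1 fibroblast gene were lower and 2 macrophage genes and 1 endothelial gene were higher, and DESeq2 called 1 smooth muscle gene. The part of all these markers in the members' differences was not tested. Proliferation genes overlapped, at 742 to 1020 CPM in IEC-/- and 893 to 931 CPM in IEC+/+. Immediate-early genes, which respond to tissue handling, summed to 1040 to 1080 CPM in IEC-/- and 1120 to 1420 CPM in IEC+/+, with 2 lower at an unadjusted p under 0.05, 1 called by DESeq2 and 0 by edgeR, and their part was not tested either. Of the 8 skeletal muscle markers 3 passed the filter on low counts and 2 were at 0 in all libraries.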

How the data were processed

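The files deposited by the authors give 1 raw count for each gene symbol and library. Polyadenylated RNA from TRIzol extracts was made into NEBNext Ultra libraries and sequenced from both ends, per the labels' protocols. TopHat, edgeR, limma and mm10 appear in the submitters' processing notes; the counter, annotation and strand setting are not given in the sources used here. Groups and replicates came from the titles.

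Counts were tested with edgeR 4.0.16 (R 4.3.3): TMM scaling, the default filter on low counts (16637 genes kept), and the quasi-likelihood test between the groups over all 4 libraries, with Benjamini-Hochberg adjustment over all genes and a threshold of 0.05. The procedure was tested on simulated data. The changes set in those data were larger than those of most members, and the outcome is not used to back the calls here. SEs were derived from the F statistic, and intervals cover 95%. Log2 CPM used a prior count of 2. Alternatives used limma 3.58.1, DESeq2 1.42.0, other scalings and filters, a replicate block, and leaving out each library. Exon lengths, as unions of annotated exons, came from GENCODE M21, and promoter sequences from RefSeq GRCm38.p6. The chi-square statistic per degree of freedom between libraries of a group was 58.8 in IEC-/- and 29.9 in IEC+/+, so no library repeated another. The members and lists were chosen with earlier results of these data known. Of each further list, genes past the test or else the 3 with the smallest p are named, and Slc2a1, except 1 gene that is not reported here; Slc16a3, Arnt, Cited2, Hif1an and the marker genes were added after their values were seen.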

Additional observations from a re-analysis of the deposited data

How the results depend on the processing

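The count of genes called, 147, became 376 with no filter on low counts (1.82%), 95 with at least 100 counts in total (0.622%), 1265 by DESeq2 (6.14%) and 78 by limma-voom (0.469%), and ranged from 0 to 729 when 1 library was left out. The count of members called, 2, became 1 with upper-quartile scaling, 1 with at least 100 counts in total, 3 with no filter and 9 by DESeq2, and ranged from 0 to 4 with 1 library left out. The 15 members lower at an unadjusted p under 0.05 became 12 with upper-quartile scaling, beside 7.32% of all genes. They were fewer than 15 in each fit with 1 library left out. With the replicate number as a block, 2 members were called, Car9 and Egln3, Hk2 had an adjusted p of 0.0528, and 211 genes were called (1.27%). Deviations of same-numbered libraries correlated at 0.16 over genes, and with only 2 pairs the numbers were not taken to pair the samples. Over the members and the alternatives, 312 of 341 values kept direction and side of the threshold, 12 newly passed and 7 no longer passed. The 10 that changed sign were of 5 genes that passed in no setting. Pdk1 was 0.059 with upper-quartile scaling and 0.0014 with at least 100 counts in total. With 1 library left out, the log2 fold change ranged from -0.031 to 0.010 for Pdk1, from -0.12 to 0.48 for Eno2, from -0.24 to 0.026 for Pfkfb3, from -0.82 to 0.088 for Ankrd37 and from -0.040 to 0.18 for Vegfa. The difference between groups in the gap from targets to enzymes, 0.14, ranged from 0.04 to 0.24 with a library left out. The cause of these shifts was not tested. Depth was similar in all libraries, and the number of libraries limits what small differences can be shown.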
